A study of Mus musculus with 8 samples.

Results

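Cytosolic ribosomal proteins form, with the ribosomal RNAs, the large and small subunits of the ribosome that translates nuclear-encoded messages. Their genes are scattered over the genome but are usually expressed as a set, because the proteins are needed in equal numbers. Most of their messages begin with a terminal oligopyrimidine (TOP) tract, a run of C and T at the very 5′ end through which mTOR signalling controls their translation. Neutrophils complete most of their protein synthesis in the bone marrow, and the ribosome content of the lineage declines as the cells mature.

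The genes described here are the protein-coding rows whose symbol is Rpl or Rps with a number (with x, y, a or l after it), together with Rplp0, Rplp1, Rplp2, Rpsa and Fau, without the Rps6k kinases and without pseudogenes. That rule, which uses names and no measured value, found 82 of 49315 gene rows, 50 of the large subunit and 32 of the small subunit. They lay on 20 chromosomes, with 14 on chromosome 7, 7 on chromosome 11 and 4 on the X chromosome. Of the 82, 80 passed the filter on low counts. Rpl10l, a paralog known from testis, had 0 counts in 7 libraries and 1 in the other, and Rpl39l, a paralog known from male germ cells, had 0 to 8 counts. Rps3a1, which encodes a small-subunit protein, falls outside the naming rule, as do Rack1, Rpl22l1 and Rpl7l1.

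Bulk RNA was sequenced from neutrophils of the peritoneum of C57BL/6 mice aged 2 months, all of them elicited with casein, which is injected to recruit these cells. There were 8 libraries in 4 groups of 2, namely H2R-deficient low-density, H2R-deficient high-density, wild-type low-density and wild-type high-density neutrophils. H2R is the histamine H2 receptor, encoded by Hrh2, and the labels say no more of the allele than that the mice were deficient in it. Whether a group's libraries came from different mice or from pooled mice is not in the labels, so the p-values cover library-to-library spread alone, and that spread may be technical.

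Total counts ranged from 19862716 to 24199215 per library. Hrh2 had 435 and 215 counts in H2R-deficient low-density libraries, 599 and 275 in H2R-deficient high-density libraries, 556 and 830 in wild-type low-density libraries, and 2003 and 700 in wild-type high-density libraries. The genotypes did not overlap at either density, and neither difference passed the test (edgeR adjusted p = 0.196 at low density and 0.192 at high density). No source used here gives the deleted stretch of the gene, so the remaining reads do not check the genotype. The label neutrophil was set against 14 mature neutrophil markers, all of which were detected, with summed levels of 22630 to 31528 CPM in H2R-deficient low-density libraries, 83690 to 83870 in H2R-deficient high-density libraries, 36719 to 51590 in wild-type low-density libraries and 72941 to 77529 in wild-type high-density libraries. CPM is a gene's count relative to the library total, here after scaling the totals by TMM, edgeR's correction for library composition.

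The ribosomal protein genes took the largest part of the reads in H2R-deficient low-density cells. Their counts made up 2.19% and 2.17% of all counts in H2R-deficient low-density libraries, 0.400% and 0.465% in H2R-deficient high-density libraries, 1.26% and 0.952% in wild-type low-density libraries, and 0.537% and 0.613% in wild-type high-density libraries. Both low-density groups lay above both high-density groups, the H2R-deficient low-density libraries were the highest of the 8, and the H2R-deficient high-density libraries were the lowest. The median gene of the 80 stood at 167 and 182 CPM in H2R-deficient low-density libraries, 52.1 and 68.9 CPM in H2R-deficient high-density libraries, 112 and 93.5 CPM in wild-type low-density libraries, and 74.7 and 81.6 CPM in wild-type high-density libraries. These medians kept the same order of groups.

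**Figure D1:**
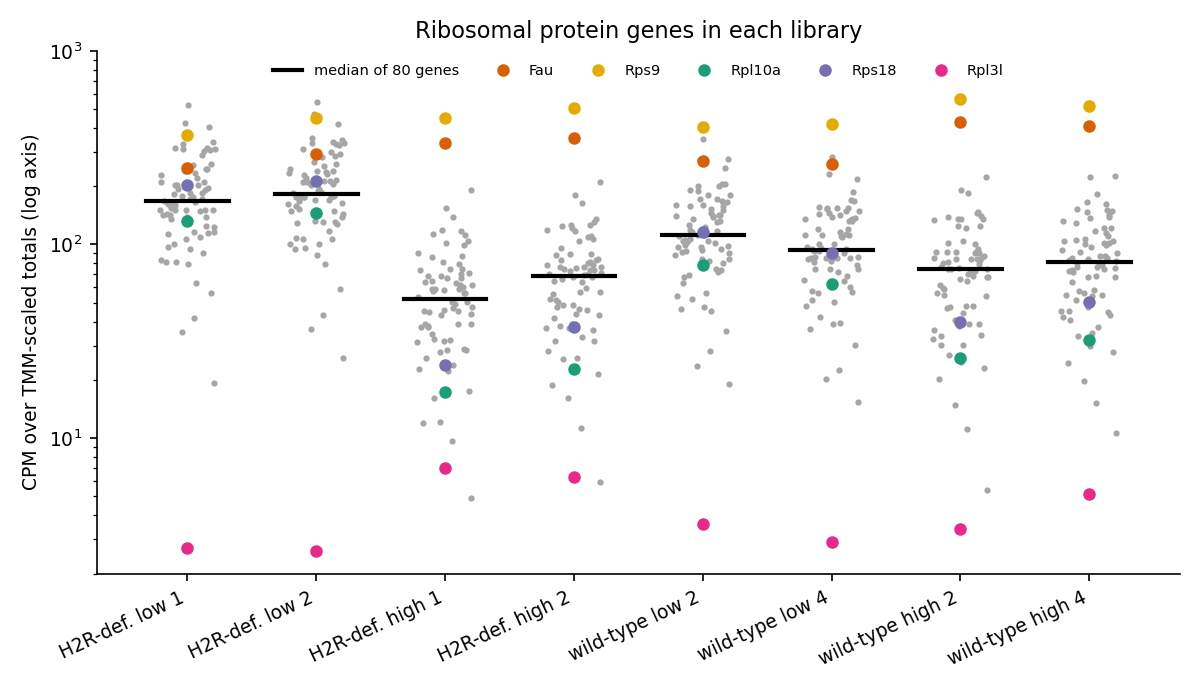
Level of each of the 80 tested ribosomal protein genes in the 8 libraries, in CPM over TMM-scaled totals on a log axis. Grey points are genes, black bars the median of the 80 genes, and 5 genes are coloured. The median bar is highest in the H2R-deficient low-density libraries (167 and 182 CPM) and lowest in the H2R-deficient high-density libraries (52.1 and 68.9 CPM), and Rps9 and Fau are the 2 highest genes in each high-density library.

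Low-density cells were compared with high-density cells within each genotype, the comparison that asks what distinguishes the populations. In H2R-deficient cells nearly the whole ribosomal protein set was higher at low density. Of the 80 genes, 76 rose and 1 fell, against 30.0% and 23.9% of all 14909 genes tested (edgeR quasi-likelihood test, Benjamini-Hochberg adjusted p under 0.05). The median log2 fold change was 1.60, a 3.04-fold difference, beside a median of 0.10 over all genes tested, and single genes ranged from -1.32 to 2.80. The libraries did not overlap for any of the 80 genes, with 77 above and 3 below, against 43.9% and 37.1% of all genes. The large-subunit genes rose in 47 of 48 cases with a median of 1.59, and the small-subunit genes in 29 of 32 with a median of 1.69. With total counts in place of TMM scaling the median of all genes moved to 1.0 and that of the ribosomal protein genes to 2.51, and 79 rose and 0 fell.

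The same direction was seen in wild-type cells with a smaller size. There 21 of the 80 genes rose and 1, Fau, fell, against 8.51% and 4.15% of all genes tested (edgeR adjusted p under 0.05). The median log2 fold change was 0.49, a 1.41-fold difference, beside 0.10 over all genes, with a range from -0.66 to 1.28. Both low-density libraries lay above both high-density libraries for 63 genes and below them for 5, against 35.1% and 27.0% of all genes, and the other 12 overlapped. All 21 genes that rose in wild-type cells were among the 76 that rose in H2R-deficient cells, which is 100% of the shorter list and 27.6% of the longer. That wild-type count depended on which libraries were kept. Leaving out wild-type high-density library 2 gave 0, as did leaving out wild-type low-density library 2, and it was 7 without wild-type low-density library 4 and 10 without either H2R-deficient low-density library, and it was 74 with total counts in place of TMM scaling, where the median of all genes moved to 0.67 and that of the ribosomal protein genes to 1.07.

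Across the 80 genes the density changes of both genotypes, which share no library, had a Pearson r of 0.933 and a Spearman rho of 0.952. Without Rpl3l, the gene farthest from the others, r was 0.955. Over all genes tested r was 0.785 and rho 0.814. These correlations run across genes, which are not independent replicates, and they share the library scaling.

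**Figure D2:**
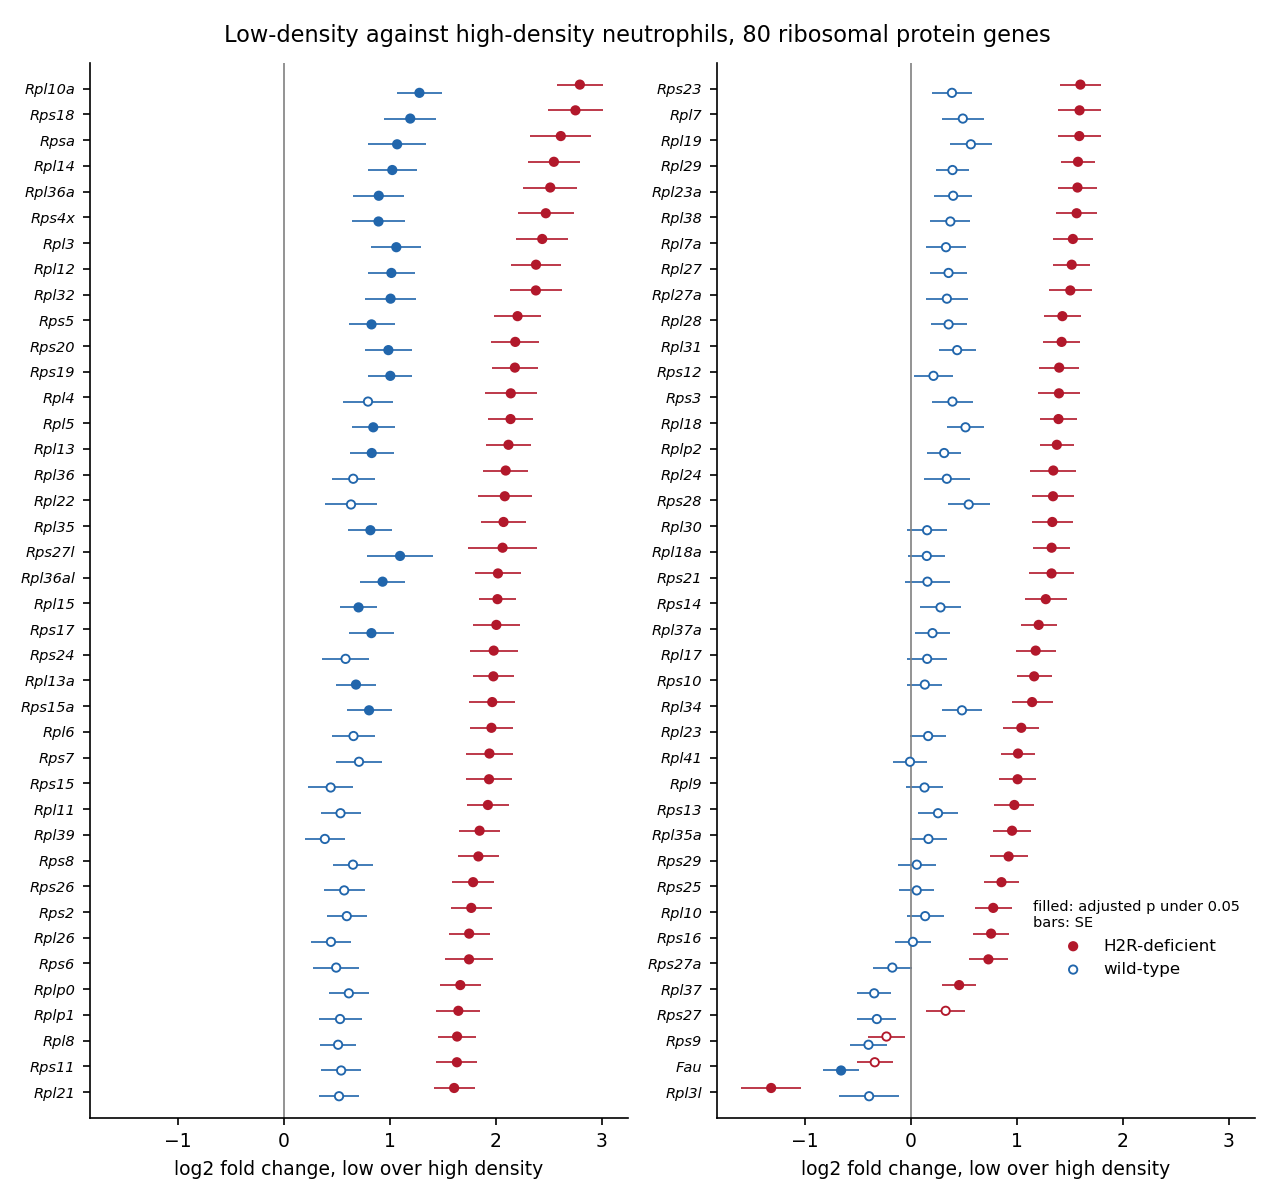
Log2 fold change of low-density over high-density neutrophils for the 80 tested ribosomal protein genes, ordered by the change in H2R-deficient cells. Red stands for H2R-deficient and blue for wild-type cells, bars are standard errors of the fit with 2 libraries a group, and filled points have an edgeR adjusted p under 0.05. The changes run from 2.80 for Rpl10a to -1.32 for Rpl3l in H2R-deficient cells, and 21 blue points above 0 are filled.

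In bulk RNA, fewer cells of a type and less RNA per cell cannot be told apart, and markers of other cells moved with density. The 12 B cell markers summed to 1090 to 1346 CPM in H2R-deficient low-density libraries and 63.3 to 91.3 CPM in H2R-deficient high-density libraries, and 12 of 12 rose. They summed to 274 to 614 CPM in wild-type low-density libraries and 74.0 to 84.2 CPM in wild-type high-density libraries, and 11 of 12 rose. The dendritic cell markers, 9 of 10 tested, summed to 484 to 712 CPM in H2R-deficient low-density libraries and 11.1 to 16.2 CPM in H2R-deficient high-density libraries, and to 215 to 462 CPM in wild-type low-density libraries and 10.2 to 33.3 CPM in wild-type high-density libraries. Of these, 7 rose in H2R-deficient and 6 in wild-type cells, while Siglech, a plasmacytoid marker, was at 0 counts in 2 libraries.

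Mature neutrophil markers went the other way, with 14 of 14 falling in H2R-deficient cells and 3 of 14 falling in wild-type cells. Proliferation genes summed to 283 to 395 CPM in H2R-deficient low-density libraries and 109 to 113 CPM in H2R-deficient high-density libraries, and to 200 to 250 CPM in wild-type low-density libraries and 114 to 157 CPM in wild-type high-density libraries. All 12 of them rose in H2R-deficient cells and 10 in wild-type cells. The part of these cells in the ribosomal protein result was not tested.

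The remaining marker lists were smaller or mixed, and some of their counts lay near or under the shares of all genes. The macrophage markers summed to 546 to 579 CPM in H2R-deficient low-density libraries and 852 to 986 CPM in H2R-deficient high-density libraries, although 7 of 11 genes rose and 2 fell. In wild-type cells they summed to 717 to 780 CPM at low density and 1076 to 1084 CPM at high density, and 0 of 11 rose or fell. T and NK cell markers summed to 46.2 to 52.5 CPM in H2R-deficient low-density libraries and 10.2 to 33.2 CPM in H2R-deficient high-density libraries, with 5 of 14 rising and 1 falling, and to 46.8 to 67.9 CPM in wild-type low-density libraries and 8.32 to 11 CPM in wild-type high-density libraries, with 6 rising. Erythroid genes, 5 of 6 tested, all fell in both genotypes, with sums of 0.111 to 0.424 CPM in H2R-deficient low-density libraries and 29.1 to 65.4 CPM in H2R-deficient high-density libraries, and of 0.486 to 1.49 CPM in wild-type low-density libraries and 62.8 to 226 CPM in wild-type high-density libraries.

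Mast cell, eosinophil and immature neutrophil markers made up the rest. Mast cell markers fell in 4 of 6 cases in H2R-deficient cells and in 1 in wild-type cells. Eosinophil markers, 6 of 7 tested, rose in 1 case and fell in 3 in each genotype, with Epx, a granule peroxidase, at 0 counts in 7 of 8 libraries. Of 7 tested immature neutrophil genes 1 fell in H2R-deficient cells and 0 passed the test in wild-type cells, with median log2 fold changes of -0.60 and 0.75. The 11 genes of that list summed to 722 to 1262 CPM in H2R-deficient low-density libraries and 1330 to 2063 CPM in H2R-deficient high-density libraries. In wild-type cells they summed to 764 to 1531 CPM at low density and 427 to 1073 CPM at high density, which overlap. The part of any of these lists in the ribosomal protein result was not tested either.

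The genes with the largest rise encode proteins of both subunits. Rpl10a (ENSMUSG00000037805, chromosome 17, 28328471 to 28331032, plus strand, GRCm38) encodes the protein of the mobile L1 stalk, which guides spent tRNA out of the ribosome. It stood at 133 and 145 CPM in H2R-deficient low-density libraries, 17.3 and 22.7 CPM in H2R-deficient high-density libraries, 78.6 and 62.2 CPM in wild-type low-density libraries, and 25.9 and 32 CPM in wild-type high-density libraries. Low density was above high density in both genotypes with no overlap, and H2R-deficient cells were the highest at low density and the lowest at high density. The log2 fold change with low density was 2.80 ± 0.22 (SE) in H2R-deficient cells, a 6.94-fold rise, and 1.28 ± 0.21 in wild-type cells (edgeR adjusted p = 0.000177 and 0.0111).

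Rps18 (ENSMUSG00000008668, chromosome 17, 33951999 to 33956001, minus strand) encodes a protein of the small-subunit head that touches the large subunit. It stood at 202 and 213 CPM in H2R-deficient low-density libraries, 24.0 and 37.6 CPM in H2R-deficient high-density libraries, 117 and 89.8 CPM in wild-type low-density libraries, and 39.9 and 50.3 CPM in wild-type high-density libraries. The groups stood in the same order as for Rpl10a, again with no overlap between densities. It rose by 2.75 ± 0.26 and 1.19 ± 0.25 on the log2 scale in H2R-deficient and wild-type cells (edgeR adjusted p = 0.000203 and 0.0207). Exons of Rps18 overlap Vps52 and those of Rpl10a overlap an unnamed gene on the opposite strand, and since no source used here gives the strand setting of the counting, reads of such pairs cannot be told apart. Such an overlap held for 18 of the 82 genes, and 28 overlapped an exon of another gene on their own strand, mostly small nucleolar RNAs.

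Rpsa, which encodes the small-subunit protein at the exit of the message channel, stood at 402 and 418 CPM in H2R-deficient low-density libraries, 50.4 and 83.5 CPM in H2R-deficient high-density libraries, 248 and 188 CPM in wild-type low-density libraries, and 86.3 and 121 CPM in wild-type high-density libraries. Rpl14, a large-subunit protein gene, stood at 178 and 202 CPM in H2R-deficient low-density libraries, 27.8 and 37.2 CPM in H2R-deficient high-density libraries, 112 and 85.0 CPM in wild-type low-density libraries, and 40.9 and 56.0 CPM in wild-type high-density libraries. Neither gene overlapped between densities in either genotype. Rpsa rose by 2.62 ± 0.29 in H2R-deficient and 1.07 ± 0.27 in wild-type cells (edgeR adjusted p = 0.00026 and 0.0369), and Rpl14 by 2.55 ± 0.25 and 1.02 ± 0.23 (edgeR adjusted p = 0.000204 and 0.0271). Rpl3, whose protein reaches towards the peptidyl transferase centre, rose by 2.44 ± 0.25 and 1.06 ± 0.24 (edgeR adjusted p = 0.000223 and 0.0258).

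At the other end, Rpl3l aside, stood Fau, Rps9, Rps27 and Rpl37. Rps9 and Fau were the 2 highest genes of the set in every high-density library. Fau (ENSMUSG00000038274, chromosome 19, 6057888 to 6059524, plus strand) encodes the small-subunit protein eS30 fused to a ubiquitin-like protein that is cut off. It stood at 248 and 294 CPM in H2R-deficient low-density libraries, 333 and 353 CPM in H2R-deficient high-density libraries, 270 and 260 CPM in wild-type low-density libraries, and 429 and 407 CPM in wild-type high-density libraries. Low density was below high density in both genotypes, the reverse of most of the set. The log2 fold change was -0.34 ± 0.17 in H2R-deficient cells, which did not pass the test and was 0.56 with total counts in place of TMM scaling, and -0.66 ± 0.17 in wild-type cells (edgeR adjusted p = 0.111 and 0.0365). The wild-type call was lost when any 1 of the 8 libraries was left out.

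Rps9 (ENSMUSG00000006333, chromosome 7, 3703993 to 3706897, plus strand) encodes a small-subunit protein at the entry of the message channel. It stood at 368 and 448 CPM in H2R-deficient low-density libraries, 452 and 505 CPM in H2R-deficient high-density libraries, 403 and 419 CPM in wild-type low-density libraries, and 564 and 521 CPM in wild-type high-density libraries. Low density was below high density in both genotypes here too, though the H2R-deficient libraries were close. Its log2 fold changes, -0.23 ± 0.18 in H2R-deficient and -0.40 ± 0.18 in wild-type cells, did not pass the test (edgeR adjusted p = 0.285 and 0.147), and with total counts they were 0.67 and 0.17.

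Rps27, a zinc-finger protein gene of the small subunit, stood at 165 and 213 CPM in H2R-deficient low-density libraries, 138 and 163 CPM in H2R-deficient high-density libraries, 153 and 141 CPM in wild-type low-density libraries, and 185 and 183 CPM in wild-type high-density libraries. Low density was slightly above high density in H2R-deficient cells and below it in wild-type cells. Neither difference passed the test, at 0.33 ± 0.19 and -0.32 ± 0.19 (edgeR adjusted p = 0.157 and 0.251). Rpl37, a large-subunit gene, rose by 0.46 ± 0.16 in H2R-deficient cells and had a log2 fold change of -0.35 ± 0.16 in wild-type cells (edgeR adjusted p = 0.0403 and 0.17). With total counts the wild-type values were 0.25 for Rps27 and 0.23 for Rpl37.

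The 5 genes shown here carry a pyrimidine tract around their annotated starts. The windows below, from RefSeq (GRCm38.p6), run from 40 bases before to 20 bases from the start on, 5′ to 3′ on the gene's strand. They set 2 of the genes that rose most beside the 3 with the lowest changes among genes of at least 20 CPM in H2R-deficient cells. Rpl10a and Rpsa, which rose more than Rpl14, are not shown, and these chosen windows do not give the share of the set with a tract. Capitals mark the tract, a C followed by C or T for at least 6 bases in all and reaching within 10 bases of the start. That pattern is looser than a TOP tract, which lies at the very 5′ end of the message. Each marked tract begins before the annotated start and runs across it, and where the messages begin was not tested.
Rps18, chr17:33955646-33955705, minus strand: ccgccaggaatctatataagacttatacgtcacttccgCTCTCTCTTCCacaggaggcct
Rpl14, chr9:120571477-120571536, plus strand: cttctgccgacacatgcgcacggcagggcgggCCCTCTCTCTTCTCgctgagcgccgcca
Rps27, chr3:90213629-90213688, minus strand: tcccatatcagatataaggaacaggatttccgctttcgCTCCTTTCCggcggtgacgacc
Rps9, chr7:3704001-3704060, plus strand: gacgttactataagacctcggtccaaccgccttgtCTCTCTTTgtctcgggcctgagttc
Fau, chr19:6057907-6057966, plus strand: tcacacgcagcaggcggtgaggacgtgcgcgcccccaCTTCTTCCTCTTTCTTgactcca

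Of the 82 genes, 62 had an entry in the promoter table, with 74 promoters between them. The tract was found in 38 of the 74 (51.4%) and in 22.9% of all 32851 promoters of the same length. The letters CCGGAAG, searched on both strands from 250 bases before to 50 bases after the start, were in 35.1% of these promoters and 8.86% of all. AAGATGGC was in 10.8% against 2.75%, TGACGTCA in 8.11% against 1.79%, CACGTG in 10.8% against 7.15%, and TATAAA in 8.11% against 13.6%. Overlaps between motifs were not counted. The tested genes with the tract had a median log2 fold change of 1.67 (36 genes) with low density in H2R-deficient cells, and those without it 1.46 (24 genes). The same medians with and without the letters were 1.75 and 1.52 for CCGGAAG, 1.81 and 1.55 for TATAAA, and 1.46 and 1.60 for AAGATGGC, the last 2 motifs with 6 genes each. These matches describe letters in the windows and were not tested against expression.

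The genes were also described by role. The stalk that recruits elongation factors is built from Rplp0, Rplp1 and Rplp2, and all 3 rose in H2R-deficient cells, by 1.67 ± 0.19, 1.65 ± 0.21 and 1.38 ± 0.16 on the log2 scale (edgeR adjusted p = 0.000295, 0.000415 and 0.000328). In wild-type cells their changes of 0.61 ± 0.19, 0.53 ± 0.20 and 0.31 ± 0.16 did not pass the test (edgeR adjusted p = 0.0588, 0.104 and 0.2). Rplp0 stood at 522 and 545 CPM in H2R-deficient low-density libraries, 155 and 181 CPM in H2R-deficient high-density libraries, 351 and 283 CPM in wild-type low-density libraries, and 190 and 224 CPM in wild-type high-density libraries. It did not overlap between densities in either genotype.

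Rpl5 and Rpl11 bind the 5S ribosomal RNA and, outside the ribosome, the p53 regulator Mdm2. Rpl5 stood at 235 and 254 CPM in H2R-deficient low-density libraries, 47.2 and 63.7 CPM in H2R-deficient high-density libraries, 146 and 117 CPM in wild-type low-density libraries, and 70.1 and 76.1 CPM in wild-type high-density libraries. Low density was above high density in both genotypes. Rpl5 rose by 2.14 ± 0.21 in H2R-deficient and 0.85 ± 0.20 in wild-type cells (edgeR adjusted p = 0.000208 and 0.0305). Rpl11 rose by 1.93 ± 0.20 in H2R-deficient cells and had a change of 0.54 ± 0.19 in wild-type cells (edgeR adjusted p = 0.000221 and 0.0846).

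Of the genes around the decoding site and message entry (Rps2, Rps3, Rps15, Rps23, Rps9, Rps27a and Fau), 5 of 7 rose in H2R-deficient cells with a median of 1.40, all but Rps9 and Fau, and 0 rose and 1 fell in wild-type cells. The 4 genes at the message exit (Rps26, Rps28, Rps14 and Rpsa) all rose in H2R-deficient cells with a median of 1.56, and 1 rose in wild-type cells. The 8 genes lining the nascent chain exit tunnel or standing at its mouth all rose in H2R-deficient cells with a median of 1.67, and 1, Rpl35, rose in wild-type cells. Of 18 genes whose human counterparts are mutated in Diamond-Blackfan anaemia, 17 rose in H2R-deficient cells with a median of 1.77, all but Rps27, and 5 rose in wild-type cells. Of all 80 ribosomal protein genes, 76 rose in H2R-deficient cells, and 21 rose and 1 fell in wild-type cells. Over all genes tested these shares were 30.0%, 8.51% and 4.15%. The role sets were not tested against the rest of the 80 genes.

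The second fusion gene, Rps27a, encodes ubiquitin joined to a small-subunit protein. It stood at 150 and 178 CPM in H2R-deficient low-density libraries, 86.8 and 111 CPM in H2R-deficient high-density libraries, 132 and 131 CPM in wild-type low-density libraries, and 148 and 150 CPM in wild-type high-density libraries. Low density was above high density in H2R-deficient cells and below it in wild-type cells. It rose by 0.73 ± 0.18 in H2R-deficient cells, and its change of -0.18 ± 0.18 in wild-type cells, 0.40 with total counts, did not pass the test (edgeR adjusted p = 0.00851 and 0.521).

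The paralogs split. Rps27l, a p53-induced relative of Rps27, stood at 19.3 and 26.1 CPM in H2R-deficient low-density libraries, 4.90 and 5.93 CPM in H2R-deficient high-density libraries, 19.0 and 15.4 CPM in wild-type low-density libraries, and 5.42 and 10.6 CPM in wild-type high-density libraries. It rose in both genotypes, by 2.07 ± 0.32 and 1.10 ± 0.31 (edgeR adjusted p = 0.000991 and 0.0497), while its relative Rps27 passed in neither. Rpl36al rose by 2.02 ± 0.22 and 0.93 ± 0.21 (edgeR adjusted p = 0.000243 and 0.0268), beside 2.52 ± 0.25 and 0.90 ± 0.24 for Rpl36a (edgeR adjusted p = 0.000221 and 0.0424).

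Rpl3l, the paralog of Rpl3 known from striated muscle, was the one gene of the set that fell in H2R-deficient cells. It stood at 2.71 and 2.61 CPM in H2R-deficient low-density libraries, 7.0 and 6.31 CPM in H2R-deficient high-density libraries, 3.60 and 2.89 CPM in wild-type low-density libraries, and 3.42 and 5.13 CPM in wild-type high-density libraries. The H2R-deficient groups did not overlap and the wild-type groups did. Its log2 fold change was -1.32 ± 0.28 in H2R-deficient and -0.40 ± 0.28 in wild-type cells (edgeR adjusted p = 0.00406 and 0.353). With total counts its fall was not called and its wild-type value was 0.18. Rps4l, which the annotation lists as a pseudogene and so as no member, had a change of 0.18 ± 0.31 in H2R-deficient cells (edgeR adjusted p = 0.645).

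Levels between genes were set per kilobase of the length given in the files. By mean CPM per kilobase over all libraries the highest were Rps12 at 407, Fau at 398, Rplp1 at 331, Rpl8 at 216, Rps26 at 207 and Rpl17 at 201. By the length of the principal transcript instead, Rps9 (503), Rps27 (486) and Fau (440) led, followed by Rps12 (332), Rplp1 (331) and Rpl10 (297), so that only 3 genes were among the first 6 on both scales. Fau stood at 332 CPM per kilobase in H2R-deficient low-density cells, 421 in H2R-deficient high-density cells, 325 in wild-type low-density cells and 513 in wild-type high-density cells, while Rps12 stood at 677, 256, 373 and 322 in the same 4 groups. Across the 80 genes the density change in H2R-deficient cells ran against the wild-type high-density level per kilobase, with a Pearson r of -0.305 and a Spearman rho of -0.424, and with -0.565 and -0.479 without Rpl3l. The 2 quantities share no library but share the genes' lengths and base composition.

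The set was next compared with itself, by using the summed ribosomal protein counts of each library as its size. A change is then one in a gene's share of the set. Shares are parts of a whole, so a fall in abundant genes such as Fau and Rps9 raises the shares of the others. With TMM factors over the set in place of these sums, the set's median log2 fold change with low density in H2R-deficient cells was -0.014. In H2R-deficient cells 27 genes rose and 9 fell as a share with low density (edgeR adjusted p under 0.05). With the same library sizes 9.28% of all genes rose and 57.8% fell. The median log2 fold change was 0.18 over the 80 genes and -1.33 over all genes. Genes outside the set have no share of it, so the values over all genes carry the rise of the set with the sign turned. The highest changes among those named by adjusted p were 1.37 ± 0.21 for Rpl10a, 1.34 ± 0.23 for Rps18, 1.21 ± 0.25 for Rpsa, 1.13 ± 0.22 for Rpl14, 1.10 ± 0.23 for Rpl36a and 1.07 ± 0.23 for Rps4x. Rpl36a and Rps4x are X-linked genes of the large and small subunit. The lowest were -2.76 ± 0.29 for Rpl3l, -1.78 ± 0.23 for Fau, -1.67 ± 0.24 for Rps9, -1.11 ± 0.22 for Rps27, -0.99 ± 0.22 for Rpl37 and -0.67 ± 0.21 for Rps16. Leaving out library 1 of the H2R-deficient low-density group gave 9 higher and 5 lower, leaving out its library 2 gave 10 and 5, and leaving out H2R-deficient high-density library 1 gave 13 and 7, and with TMM factors over the set they were 13 and 15.

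Fau and Rps9 together made up 4.19% and 4.59% of the ribosomal protein counts in H2R-deficient low-density libraries, 15.1% and 13.7% in H2R-deficient high-density libraries, 6.66% and 7.94% in wild-type low-density libraries, and 14.4% and 12.2% in wild-type high-density libraries. The high-density libraries of both genotypes covered overlapping ranges, and the low-density libraries lay below all of them. In wild-type cells the median change on this scale was 0.13 over the 80 genes and -0.26 over all genes. There 2 genes rose as a share, Rpl10a (0.92 ± 0.21) and Rps18 (0.83 ± 0.23). As many as 3 fell, Fau (-1.02 ± 0.22), Rps9 (-0.76 ± 0.23) and Rpl37 (-0.71 ± 0.22). Of all genes 5.11% rose and 11.7% fell with these library sizes (edgeR adjusted p under 0.05). Both wild-type counts were 0 without wild-type high-density library 2 or without wild-type low-density library 2. The rises numbered 1 without either H2R-deficient low-density library or without wild-type low-density library 4, and the falls numbered 1 on leaving out any 1 of the other 6 libraries.

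**Figure D3:**
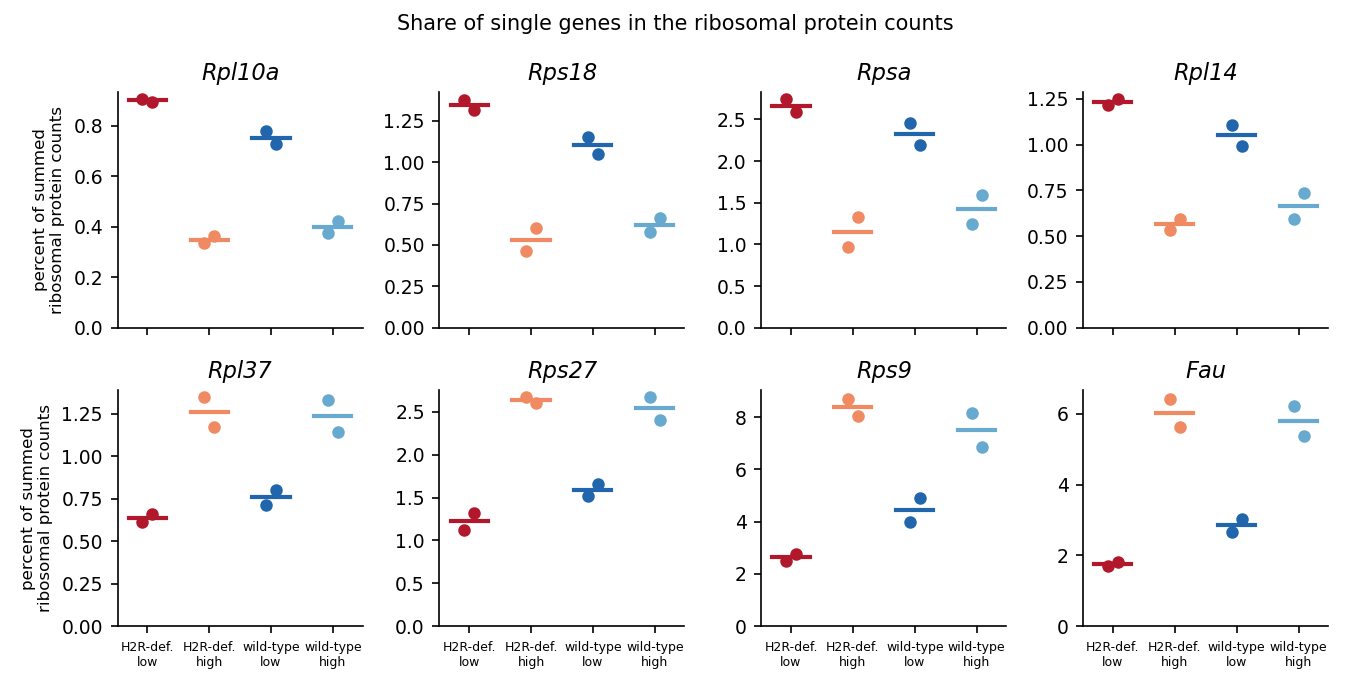
Share of 8 single genes in the summed ribosomal protein counts, in percent, by group. Points are libraries (2 a group) and bars their means, and each panel's axis starts at 0. Rpl10a, Rps18, Rpsa and Rpl14 (top) take larger shares at low density and Rpl37, Rps27, Rps9 and Fau (bottom) smaller ones, with Fau at 1.69% and 1.82% in H2R-deficient low-density libraries and 6.42% and 5.64% in H2R-deficient high-density libraries.

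H2R-deficient cells were then compared with wild-type cells at each density. At low density the H2R-deficient libraries held more ribosomal protein RNA, with a median log2 fold change of 0.77 over the 80 genes, a 1.70-fold difference, beside 0.05 over all genes. No gene of the 80 passed the test, where 0% of all 14909 genes did in either direction (edgeR quasi-likelihood test, adjusted p under 0.05, lowest adjusted p of a ribosomal protein gene 0.104). At an unadjusted p under 0.05, 74 of the 80 genes were higher and 0 lower, where 10.7% and 10.3% of all genes were. DESeq2 called 70 higher, edgeR without a filter on low counts 65 and limma-voom 0, where these settings called 6.14%, 4.84% and 0% of all genes in either direction. Both H2R-deficient libraries lay above both wild-type libraries for 77 genes and below them for 1, Rpl3l, against 33.5% and 26.6% of all genes, and Fau and Rps9 overlapped.

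The highest differences at low density were 1.08 ± 0.24 for Rpl36a, 1.01 ± 0.22 for Rps20, 1.01 ± 0.24 for Rps18 and 0.99 ± 0.22 for Rpl12, whose protein lies at the base of the stalk (edgeR adjusted p = 0.108, 0.104, 0.108 and 0.108). Rpl36a stood at 81.6 and 94.2 CPM in H2R-deficient low-density libraries, against 46.5 and 36.5 CPM in wild-type low-density libraries, and Rps20 at 150 and 161 CPM against 88.6 and 65.9 CPM in the same groups. The lowest were -0.01 ± 0.18 for Rps9, 0.03 ± 0.17 for Fau, 0.32 ± 0.18 for Rps27a and 0.36 ± 0.19 for Rps27 (edgeR adjusted p = 0.978, 0.933, 0.339 and 0.29). On the scale of shares of the ribosomal protein counts the median was 0.04 over the 80 genes and -0.68 over all genes. As a share 0 genes were higher and 3 lower in H2R-deficient cells, namely Rpl3l (-1.0 ± 0.29), Rps9 (-0.75 ± 0.23) and Fau (-0.70 ± 0.22). Of all genes 0.188% were higher and 31.8% lower with these library sizes (edgeR adjusted p under 0.05). All 3 of those calls were lost without either H2R-deficient low-density library or without wild-type low-density library 4. The B cell sum was 1090 to 1346 CPM in H2R-deficient low-density libraries and 274 to 614 CPM in wild-type low-density libraries, and the part of this difference in the result was not tested.

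At high density the difference lay the other way. The median log2 fold change was -0.35, a 0.783-fold difference, beside -0.05 over all genes. No gene of the 80 passed the test, where 0.0201% of all genes were higher and 0.188% lower (edgeR adjusted p under 0.05, lowest adjusted p of a ribosomal protein gene 0.151). At an unadjusted p under 0.05, 23 were lower and 1 higher, where 10.7% and 7.95% of all genes were, DESeq2 called 1 lower and limma-voom 0, where they called 4.69% and 0.0134% of all genes in either direction. Both H2R-deficient libraries lay below both wild-type libraries for 64 genes and above them for 1, Rpl3l, against 25.8% and 21.1% of all genes, and 15 overlapped.

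The lowest values at high density were -0.67 ± 0.25 for Rps4x, -0.63 ± 0.27 for Rpsa, -0.62 ± 0.19 for Rpl39, a small protein of the exit tunnel, and -0.59 ± 0.18 for Rps27a (edgeR adjusted p = 0.205, 0.258, 0.151 and 0.152). Rps4x stood at 43.1 and 72.9 CPM in H2R-deficient high-density libraries, against 84.0 and 101 CPM in wild-type high-density libraries, and Rpl39 at 22.9 and 28.1 CPM against 36.1 and 42.3 CPM in the same groups. The highest, apart from genes under 20 CPM, were 0.03 ± 0.20 for Rps28, -0.07 ± 0.19 for Rps13, -0.09 ± 0.19 for Rpl34 and -0.16 ± 0.18 for Rpl10 (edgeR adjusted p = 0.957, 0.862, 0.83 and 0.651). Without H2R-deficient high-density library 1 the number of genes at an unadjusted p under 0.05 was 0, and without wild-type high-density library 4 it was 4. The mature neutrophil sums were 83690 to 83870 CPM in H2R-deficient high-density libraries and 72941 to 77529 CPM in wild-type high-density libraries. Macrophage markers summed to 852 to 986 against 1076 to 1084 CPM in the same groups (median log2 fold change -1.80). Eosinophil markers summed to 26.5 to 30.2 against 69.3 to 81.2 CPM (median -1.35), and T and NK cell markers had a median of 1.18 with 0 called. The macrophage and eosinophil lists each held 1 lower gene, where 0.188% of all genes were lower (edgeR adjusted p under 0.05). The part of these cells in the result was not tested.

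**Figure D4:**
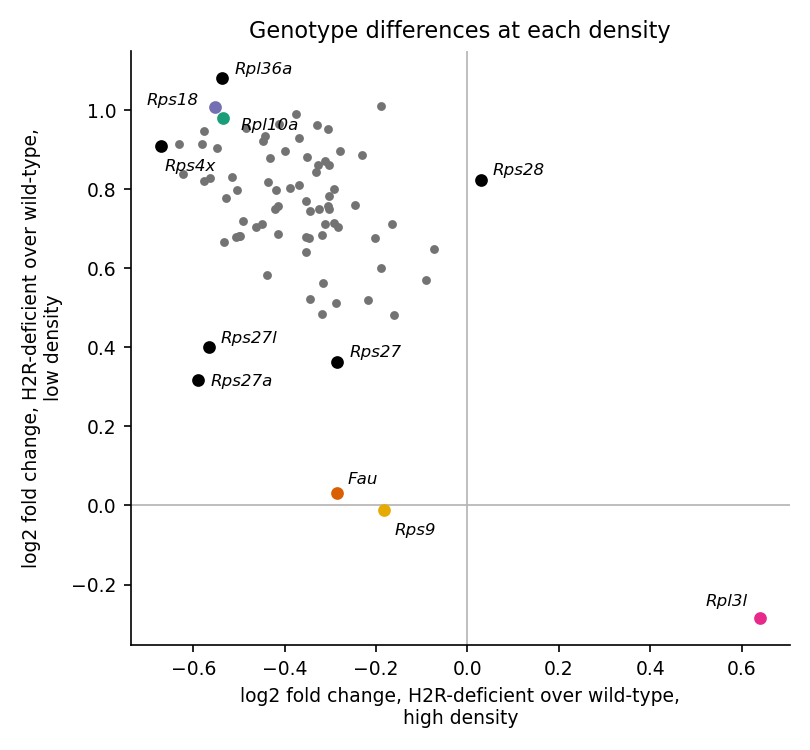
Log2 fold change of H2R-deficient over wild-type neutrophils for the 80 tested ribosomal protein genes, at high density (horizontal) and at low density (vertical). Each point is a gene, and labelled genes are named in the text. Most points lie in the upper left, above 0 at low density and below 0 at high density, with Fau, Rps9 and Rpl3l apart.

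The density changes were then subtracted, H2R-deficient minus wild-type, each with its sign. The difference was above 0 for 79 of the 80 genes, among them Fau and Rps9, whose changes were below 0 in both genotypes, and below 0 for Rpl3l. It had a median of 1.17 beside 0.04 over all genes. No gene passed the test of that difference, where 0% of all genes did in either direction (edgeR adjusted p under 0.05, lowest adjusted p of a ribosomal protein gene 0.0906). At an unadjusted p under 0.05, 76 of the 80 were higher and 1 lower, where 12.6% and 8.53% of all genes were. DESeq2 called 71 higher, edgeR with total counts 70, edgeR without a filter 66 and limma-voom 0, where these settings called 6.64%, 4.26%, 4.31% and 0% of all genes in either direction. The highest differences were 1.62 ± 0.34 for Rpl36a, 1.58 ± 0.35 for Rps4x, 1.56 ± 0.34 for Rps18 and 1.55 ± 0.39 for Rpsa (edgeR adjusted p = 0.0906, 0.0906, 0.0906 and 0.0931). The lowest, apart from genes under 20 CPM, were 0.17 ± 0.25 for Rps9, 0.32 ± 0.24 for Fau, 0.64 ± 0.25 for Rpl10 and 0.65 ± 0.26 for Rps27 (edgeR adjusted p = 0.73, 0.469, 0.184 and 0.198). Rpl10 encodes a protein that joins the large subunit late in its assembly. As a share of the ribosomal protein counts, 1 gene, Rpl3l, had a lower difference and 0 a higher one, where 34.1% and 0.181% of all genes did (edgeR adjusted p under 0.05). On that scale the median difference was -1.04 over all genes and 0.11 over the 80 genes. With TMM-scaled totals the difference for Rpl3l was -0.92.

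**Figure D5:**
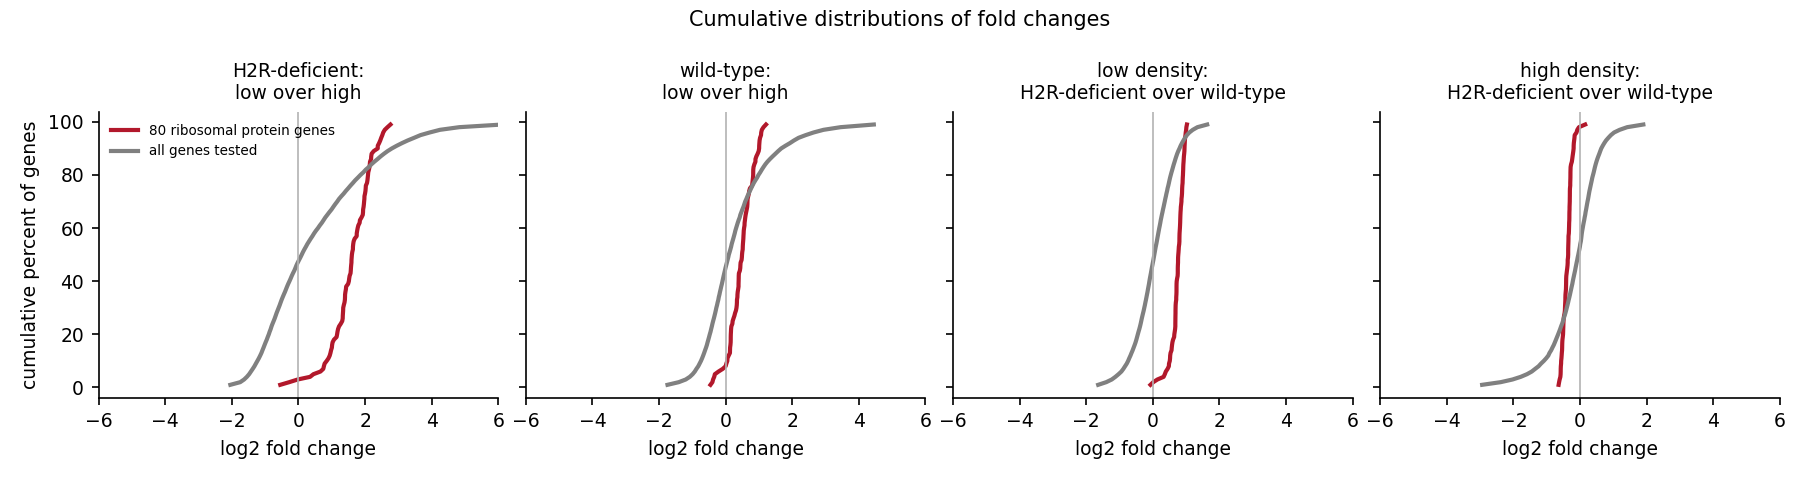
Cumulative percent of genes by log2 fold change, from the 1st to the 99th percentile, for the 80 tested ribosomal protein genes (red) and all 14909 genes tested (grey) in the 4 comparisons. The red curve lies mostly to the right of 0 in both density comparisons (medians 1.60 and 0.49) and at low density between genotypes (median 0.77), and mostly to the left at high density between genotypes (median -0.35), with a narrower spread than the grey curve in each panel.

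Other genes of the translation machinery were described by lists chosen with earlier results of these data known. Their counts stand beside 30.0% of all genes higher and 23.9% lower in H2R-deficient cells, and 8.51% and 4.15% in wild-type cells. Ribosome biogenesis factors, which build the subunits in the nucleolus, rose in 46 of 54 cases and fell in 0 in H2R-deficient cells with a median of 1.65, and rose in 19 in wild-type cells with a median of 0.64. Nop58, Fbl and Tsr1, which act in ribosomal RNA modification and small-subunit maturation, rose by 2.5 ± 0.20, 2.43 ± 0.21 and 3.16 ± 0.29 in H2R-deficient cells (edgeR adjusted p = 0.000177, 0.000193 and 0.000203). Non-ribosomal TOP messages rose in 15 of 18 cases and fell in 1 in H2R-deficient cells (median 1.47), and rose in 7 in wild-type cells (median 0.44). Of these, Nap1l1, a histone chaperone gene, rose by 3.45 ± 0.30, Eef1g, an elongation factor subunit gene, by 1.94 ± 0.18 and Npm1, the gene of the nucleolar protein nucleophosmin, by 2.76 ± 0.27 in H2R-deficient cells (edgeR adjusted p = 0.000193, 0.000204 and 0.000204).

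Elongation and termination factors rose in 9 of 12 cases and fell in 1 in H2R-deficient cells (median 1.15), and rose in 3 in wild-type cells (median 0.49). Eef1d, another subunit gene of that elongation factor, rose by 1.82 ± 0.19 and Abce1, which splits ribosomes after termination, by 2.29 ± 0.24 in H2R-deficient cells (edgeR adjusted p = 0.000228 and 0.000233). Initiation factors moved both ways, with 22 of 39 rising and 5 falling in H2R-deficient cells (median 0.64) and 6 rising and 2 falling in wild-type cells (median 0.30). The eIF3 subunit genes Eif3e, Eif3m and Eif3i rose by 2.26 ± 0.24, 2.11 ± 0.23 and 2.22 ± 0.24 in H2R-deficient cells (edgeR adjusted p = 0.000242, 0.000242 and 0.000257).

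Host genes of small nucleolar RNAs, many of them TOP transcripts, rose in 7 of 11 tested cases in H2R-deficient cells (median 1.57), and in wild-type cells 2 rose and 1 fell (median 0.53). Snhg1 rose by 1.57 ± 0.20 and Snhg12 by 2.18 ± 0.30 in H2R-deficient cells (edgeR adjusted p = 0.000467 and 0.00058). Genes of growth control over ribosome production, 14 of 15 tested, did not lean one way, with 6 rising and 5 falling in H2R-deficient cells (median -0.07) and 1 rising and 1 falling in wild-type cells. Among them Myc rose by 2.10 ± 0.25, Larp1, which binds TOP messages, rose by 1.38 ± 0.23, and Mxd1, a Myc antagonist that is also among the neutrophil markers, had a log2 fold change of -1.66 ± 0.21 in H2R-deficient cells (edgeR adjusted p = 0.000318, 0.00137 and 0.000402).

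The 4 ribosome-associated genes outside the naming rule, Rps3a1, Rack1, Rpl22l1 and Rpl7l1, all rose in H2R-deficient cells (median 1.70) and 1 of them, Rack1, rose in wild-type cells (median 0.60). Rps3a1 rose by 1.87 ± 0.20 and Rack1, a scaffold on the small subunit, by 2.19 ± 0.24 in H2R-deficient cells (edgeR adjusted p = 0.000237 and 0.00026). Rps3a1 was added to that list after its values could be seen. None of these lists held a called gene in the genotype comparisons at either density or in the difference of density changes (edgeR adjusted p under 0.05).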

How the data were processed

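Each of the 8 deposited tables holds unnormalized read counts by gene, laid out per the file headers as featureCounts writes them. Tools named in the submitters' processing notes are STAR 2.5.2b, featureCounts, Subread 1.5.2, Trimmomatic 0.36, bcl2fastq 2.17.1.14, with the build GRCm38. The sources used here do not give the strand setting, the annotation release or how reads that map to several places were handled. Ribosomal protein genes have many near-identical pseudogenes, so reads may have been lost or split between copies. The 283 pseudogene rows named after a ribosomal protein gene held 584 to 1392 counts per library, 0.258% to 0.7% of the ribosomal protein counts. Pseudogenes under other names were not counted, so these values do not give the reads of all such copies. Symbols came from GENCODE M21 by identifier (48970 of 49315 matched), and 68 of the 82 genes had the same coordinates there. Columns of samples that could not be mapped numbered 0.

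Genes were filtered with filterByExpr by group and fitted over all 8 libraries with TMM scaling and 1 mean per group by edgeR's quasi-likelihood test (edgeR 4.0.16, R 4.3.3), with 4 residual degrees of freedom, a common biological coefficient of variation of 0.236 and Benjamini-Hochberg adjustment over 14909 genes. A standard error is the absolute log2 fold change over the square root of the F statistic. With 2 libraries against 2 the smallest two-sided exact permutation p is 0.333. The p-values of single genes therefore rest on edgeR's model, whose estimate of spread is shared over the groups. DESeq2 1.42.0 and limma-voom (limma 3.58.1), other scalings and filters, a replicate block and leaving out each library were alternatives. The code was tested on simulated data with 200 planted changes. The genes and lists were chosen with earlier results of these data known. Named genes are the 4 highest and 4 lowest changes per comparison among genes averaging 20 CPM or more, up to 6 share changes each way by adjusted p, the role sets, the 6 highest levels per length and, for other lists, up to 3 genes of lowest adjusted p.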

Additional observations from a re-analysis of the deposited data

Results flagged for a closer look

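The genotype difference pointed opposite ways at the 2 densities. For 62 of the 80 genes both H2R-deficient libraries were above both wild-type libraries at low density and below both at high density, where 10.5% of all genes tested showed that pattern. The count itself was not tested, and the test of the difference gene by gene passed for 0 of the 80 genes (edgeR adjusted p under 0.05), with 76 higher and 1 lower at an unadjusted p under 0.05, 71 higher by DESeq2 and 0 by limma-voom.

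As a share of the ribosomal protein counts, the density change of Rpl3l differed between genotypes by -2.01 ± 0.40 (log2, H2R-deficient minus wild-type, edgeR adjusted p = 0.00741). On that scale 34.1% of all genes had a lower and 0.181% a higher difference, and the median over all genes was -1.04. The median over the 80 genes was 0.11. With TMM-scaled totals the difference for Rpl3l was -0.92 and was not called. Rpl3l made up 0.0185% and 0.0162% of these counts in H2R-deficient low-density libraries, 0.135% and 0.101% in H2R-deficient high-density libraries, 0.0357% and 0.0339% in wild-type low-density libraries, and 0.0494% and 0.0676% in wild-type high-density libraries.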

How the results depend on the processing

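Across settings, the count of 76 genes that rose with low density in H2R-deficient cells stayed between 74 and 79, and the 1 that fell was 0 with total counts. In wild-type cells the 21 that rose were 74 with total counts, 32 without a filter on low counts, 4 with only the libraries compared, and 0 to 19 on leaving out 1 library, while the 1 that fell was 0 with total counts, 0 with only the libraries compared and 0 to 0 on leaving out 1 library. Between genotypes, the counts of 0 became 70 higher at low density with DESeq2 and 65 without a filter, and 1 lower at high density with each. For the difference of density changes they became 70 with total counts, 71 with DESeq2 and 66 without a filter. For shares of the ribosomal protein counts, TMM factors over the set gave 13 higher and 15 lower in H2R-deficient cells and 5 lower in wild-type cells. Leaving out 1 library gave 9 to 23 higher and 5 to 9 lower in H2R-deficient cells, 0 to 2 higher and 0 to 1 lower in wild-type cells, and 0 to 3 lower for H2R-deficient against wild-type cells at low density. The cause was not tested.

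Signs reversed with total counts for Fau (0.56) and Rps9 (0.67) with density in H2R-deficient cells, for Rpl37 (0.23), Rpl3l (0.18), Rps27 (0.25), Rps27a (0.40) and Rps9 (0.17) with density in wild-type cells, for Rps9 between genotypes at low density (0.25) and for Rps28 at high density (-0.042). Without a filter on low counts Rps9 at low density was 0.016 and Rps28 at high density -0.00415. On leaving out 1 library, the low-density genotype difference ran from -0.097 to 0.16 for Fau and from -0.16 to 0.13 for Rps9, and the high-density one from -0.28 to 0.074 for Rpl34, from -0.26 to 0.093 for Rps13 and from -0.17 to 0.26 for Rps28. Leaving a group with 1 library assumes that it varies like the others.

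Low- and high-density libraries share replicate numbers within a genotype. Deviations of same-numbered libraries correlated at 0.326 in H2R-deficient and 0.155 in wild-type cells, but with 2 pairs a genotype and no label that ties a number to an animal they share only a number. With the replicate block 75 genes rose and 1 fell in H2R-deficient cells, 25 rose and 1 fell in wild-type cells, and 0 passed for the difference. The shares gave 18 higher and 8 lower in H2R-deficient cells and 2 higher and 1 lower in wild-type cells. No label pairs H2R-deficient with wild-type libraries, so no paired analysis was run between genotypes.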
